A study of Mus musculus with 4 samples.

Results

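The genes described here encode the proteins of the cytosolic ribosome, and they were chosen by their symbols: Rpl or Rps followed by a number, with Rpsa, Rplp0, Rplp1 and Rplp2 added and the Rps6k kinases left out. The array held probes for 64 such genes among 13410 named genes. Of the 64, 43 belong to the large subunit of the ribosome and 21 to the small subunit. Values from 3 or 4 arrays were present for 53 of them (36 large, 17 small), or 82.8% of the members, against 62.5% of all named genes, which left 8384 genes for testing.

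RNA came from the lungs of 4 A/J mice treated with bleomycin, a DNA-damaging drug used to injure the lung, and each mouse had its own 2-colour array. A/J is an inbred mouse strain. Each array set the amplified lung RNA of 1 treated mouse against a shared pool, made by combining amplified lung RNA of control A/J animals. The sources used here give no dose, route, time after treatment, age or sex. The pool counts as 1 control sample, so the test of the ratio against 0 leaves out the spread between control mice. Whole lung was measured, and fewer cells of a type and less RNA per cell cannot be told apart.

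The values are log ratios read as log2, each array centred on its median. The sources used here do not say which RNA is on top of the ratio. The order of the titles would put the treated mouse on top, and values below 0 would then be lower in bleomycin-treated lungs, but this is not settled. If the pool were on top, every sign below would turn, with sizes and p-values kept. The base is not stated either, and under the natural logarithm all log2 sizes would grow by 1 common factor. Between 9427 and 12136 of 17280 spots had a value per mouse, and the number of arrays limits the precision. A ratio gives no level, so the identity of the tissue can be checked only in that 7 of 10 lung epithelial markers had enough values for a test. Over the 6057 genes with 4 values, the arrays of mice 1 and 2 (Pearson r = 0.72) and of mice 3 and 4 (r = 0.86) resembled each other more than other pairs did (r from 0.44 to 0.56), a description across genes that share an array.

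Ribosomal proteins are small, mostly basic proteins most of which are needed in equal numbers for each ribosome, the particle that translates messenger RNA. The large subunit joins amino acids and holds the tunnel through which the new chain leaves, and the small subunit holds and decodes the messenger RNA. Their messenger RNAs start with a run of pyrimidines, the terminal oligopyrimidine tract, through which growth signals set their translation together. Several ribosomal proteins also bind Mdm2 when ribosome assembly is disturbed, which links them to p53.

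The stretches around the annotated start of 6 members are shown because their means stand on opposite sides of 0 in the results. Rpl39, Rpl38, Rps26 and Rps15 are 4 of the 9 that passed the test below 0, those with the lowest adjusted p. Rplp0 and Rpl10a had the 2 highest means, but neither passed (limma adjusted p = 0.115 and 0.0577). Sequences are from RefSeq (GRCm38.p6), 5′ to 3′ on the transcribed strand, from 45 bases before the start to 15 bases from it, for the first listed start of each gene. Capitals mark a C followed by at least 5 bases that are all C or T, and the motif CGGAAG, the core recognised by Ets factors, on either strand (CTTCCG on the other). The other strand of that motif holds pyrimidines, but too few to make a run by itself.
Rpl39, chrX:37085208-37085267, minus strand: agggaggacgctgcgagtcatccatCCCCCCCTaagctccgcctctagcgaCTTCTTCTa
Rpl38, chr11:114668535-114668594, plus strand: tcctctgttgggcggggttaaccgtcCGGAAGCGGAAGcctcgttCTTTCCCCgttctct
Rps26, chr10:128626492-128626551, minus strand: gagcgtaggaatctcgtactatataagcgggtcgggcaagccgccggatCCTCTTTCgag
Rps15, chr10:80292386-80292445, plus strand: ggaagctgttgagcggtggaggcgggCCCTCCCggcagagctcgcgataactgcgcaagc
Rplp0, chr5:115559422-115559481, plus strand: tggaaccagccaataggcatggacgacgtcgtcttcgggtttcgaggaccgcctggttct
Rpl10a, chr17:28328426-28328485, plus strand: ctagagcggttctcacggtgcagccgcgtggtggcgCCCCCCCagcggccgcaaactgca

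Within 50 bases on each side of the start, 42 of the 46 tested members with a listed start held such a pyrimidine run (91.3%), against 58.3% of 27025 genes with a start. CGGAAG was found on either strand in 18 of the 46 members (39.1%), against 9.44% of all those genes. Among the 9 members that passed the test, 9 held the run and 5 held CGGAAG, and among the other 37 these numbers were 33 and 13. The motif counts describe these windows only. The windows include bases before the start, so the runs counted are not a count of terminal oligopyrimidine tracts. In Rps15 and Rpl10a above, the marked run lies wholly before the annotated start. Rpl39 and Rps15 held CGGAAG within 50 bases of the start, but outside the bases printed above, so it is not marked there. Rplp0 held neither within its window.

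Across the whole family, 9 of the 53 tested genes lay below 0 past the test and 0 lay above it (limma, Benjamini-Hochberg adjusted p at most 0.05 over all 8384 genes). These 9, or 17.0% of the members, stand beside 4.81% of all genes called below 0, while 7.69% of all genes were called above 0. At an unadjusted p under 0.05, 20 members lay below 0 and 3 above, against 13.8% and 18% of all genes. The median over the members was -0.19, against 0.0015 over all genes. The mean was below 0 in 39 members and above it in 14, or 73.6% below against 49.7% of all genes. Of the 45 members with 4 values, 17 were below 0 in every mouse and 3 above 0 in every mouse, and the shares of all genes with 4 values were 21.6% and 24.8%. The 9 called genes were Rpl39, Rpl38, Rpl26 and Rpl23 of the large subunit and Rps27l, Rps23, Rps16, Rps26 and Rps15 of the small subunit, with differences between 1.56-fold and 2.08-fold.

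Members differed among themselves, with an SD of their means of 0.39, against 0.36 over all genes. Means ran from -1.06 to 0.75 in the members and from -4.90 to 2.61 over all genes. The lower and upper quartiles were -0.58 and 0.03 in the members, and -0.14 and 0.17 over all genes. Of the 44 members that did not pass, 25 lay within 0.2 of 0. In each mouse the median of the members was below 0, at -0.12, -0.27, -0.22 and -0.12 in mice 1 to 4, while that of all genes lay between -0.001 and 0.012. The 45 members with 4 values were most alike between mice 3 and 4 (Pearson r = 0.76, Spearman rho = 0.79). They were least alike between mice 1 and 3 by Pearson's r (0.20) and between mice 1 and 4 by Spearman's rho (0.24). Mice 1 and 2 had r = 0.45 and rho = 0.40. Mouse 2 was closer to mouse 4 (r = 0.56, rho = 0.51) and to mouse 3 (r = 0.46, rho = 0.48). These correlations describe genes that share arrays. The pairs used as a random block below are those alike over all genes, and for mice 1 and 2 the members did not show that pairing. Of the 53 members, 28 had arrays on both sides of 0. Of the 45 members with 4 values, 17 lay below 0 and 3 above 0 in every mouse. The shares of all genes with 4 values were 21.6% and 24.8%. In 11 members the SD between mice was over 0.5. The median SD between mice was 0.30 over the members, against 0.17 over all genes.

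**Figure D1:**
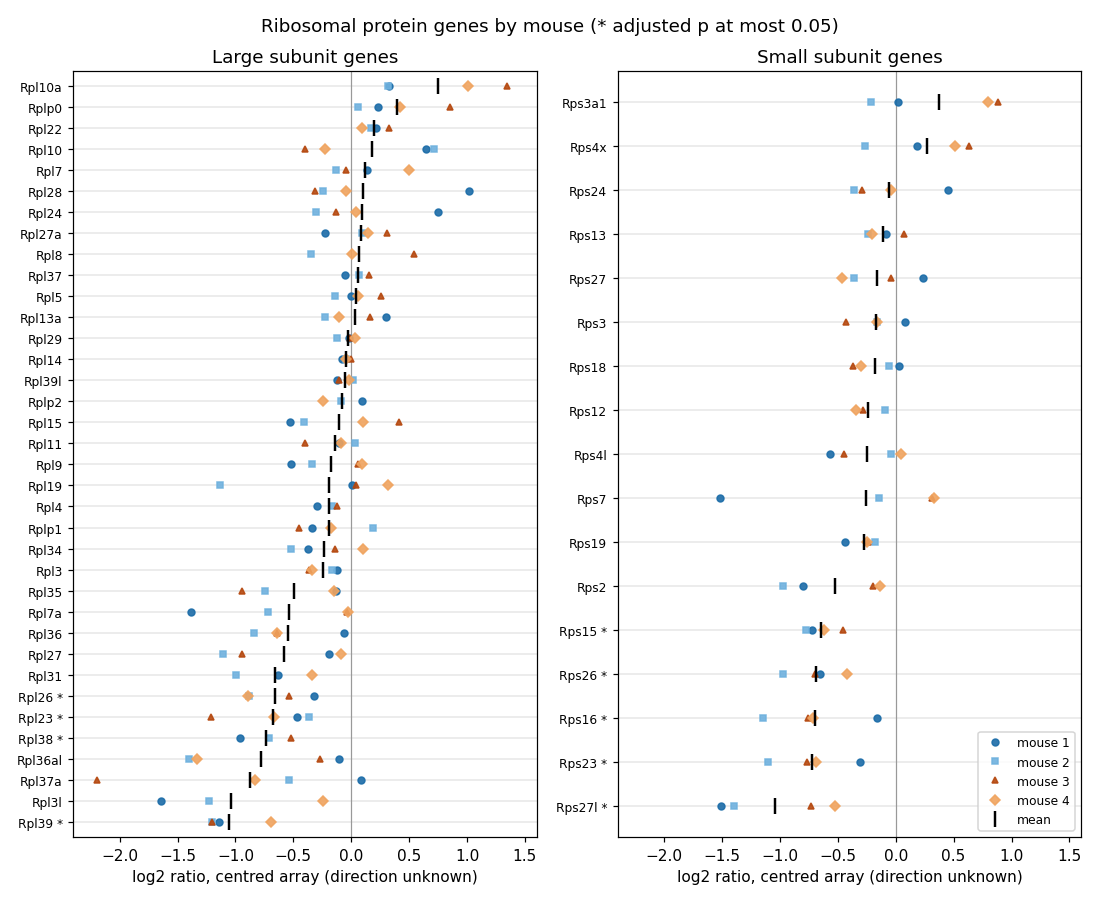
Log2 ratios of the 53 tested ribosomal protein genes (horizontal axis; sign not settled), with 1 symbol per mouse and a bar for the mean, large subunit genes left and small subunit genes right, ordered by mean. The 9 starred genes passed the test and all have means below 0, whereas Rpl10a has the highest mean, 0.75.

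The small subunit lay slightly farther from 0 than the large one. Its 17 tested genes had a median of -0.25, 5 passed below 0, and 15 had a mean below 0. The 36 tested genes of the large subunit had a median of -0.16, 4 passed below 0, and 24 had a mean below 0. Among all genes, 4.81% were called below 0 and 49.7% had a mean below 0. In mice 1 to 4 the large subunit medians were -0.10, -0.27, -0.12 and -0.05, against small subunit medians of -0.24, -0.27, -0.29 and -0.25. With the paralogs included, the small subunit median was thus nearly the same in all mice, and the large subunit median reached it in mouse 2. The difference, large minus small, was 0.13, -0.005, 0.17 and 0.20, with a mean of 0.12 ± 0.09 (SD, n = 4), and was not tested because it is a score over chosen genes. Without the paralogs the small subunit medians were -0.12, -0.27, -0.29 and -0.25 in mice 1 to 4, so that mouse 1 lay nearer 0. The large subunit medians were then -0.09, -0.24, -0.12 and -0.05, close to the small subunit medians in mice 1 and 2. The difference without the paralogs was 0.11 on average.

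**Figure D2:**
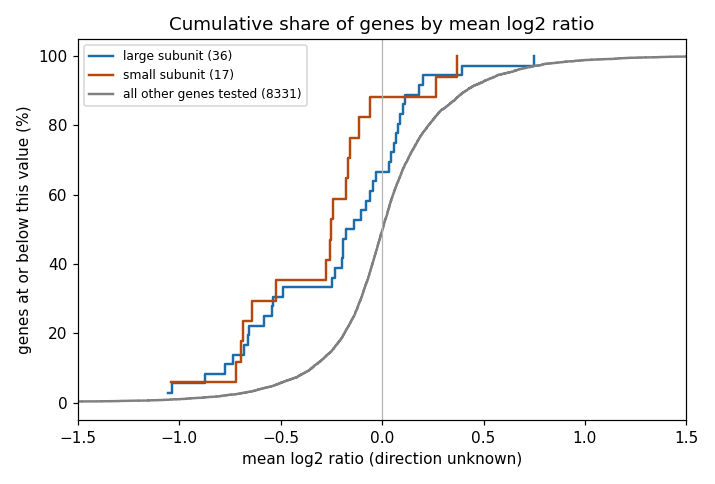
Cumulative share of genes (vertical axis, percent) at or below each mean log2 ratio (horizontal axis) for 36 large subunit genes, 17 small subunit genes and all other genes tested. Both ribosomal curves lie left of the grey curve over most of their range, with medians of -0.16 and -0.25 against 0.002.

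The ring of proteins around the exit of the peptide tunnel held 3 of the 4 called large subunit genes. Of 8 tested ring genes, 3 passed below 0 and 0 above, with a median of -0.57, beside 9 of 53 in the family and 4.81% of all genes called below 0. The ring was listed with earlier results of these data known, and its count is a description of these genes only. Rpl39, which lines the tunnel itself, had log2 ratios of -1.14, -1.21, -1.20 and -0.69 in mice 1 to 4. Mouse 4 stood nearest to 0, and the mean was -1.06 ± 0.25 (SD, n = 4; limma adjusted p = 0.00798), a 2.08-fold difference and the lowest mean of the family. Rpl38, whose loss in mice alters the translation of Hox messenger RNAs, had -0.97, -0.71 and -0.52 in mice 1 to 3 and no value in mouse 4, with a mean of -0.73 ± 0.22 (SD, n = 3; limma adjusted p = 0.0252).

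Rpl26, which sits beside the tunnel exit and binds the p53 messenger RNA in human cells, had -0.32, -0.88, -0.54 and -0.90. Mice 2 and 4 were lowest, and the mean was -0.66 ± 0.28 (SD, n = 4; limma adjusted p = 0.0254, or 0.064 with the pairs of alike mice as a random block, where the call was lost). Rpl31, also at the exit, had -0.63, -0.997 and -0.34 in mice 1, 2 and 4, and with a mean of -0.66 ± 0.33 (SD, n = 3) it stopped just short of the threshold (limma adjusted p = 0.0511). Rpl35, an anchor for the signal recognition particle, had -0.13, -0.75, -0.94 and -0.15 and did not pass (limma adjusted p = 0.101). Its values fell into a low pair, mice 2 and 3, and a pair near 0. Rpl19 was near 0 in mice 1 and 3 (0.007 and 0.04), at 0.32 in mouse 4 and at -1.14 in mouse 2. Rpl4, which reaches into the tunnel, had a mean of -0.19 over mice 1 to 3. Rpl22, a protein of the outer ring that is dispensable for translation as such, was the exception, with 0.22, 0.17, 0.32 and 0.09 (limma adjusted p = 0.115).

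Rpl23 was the fourth called gene of the large subunit. Its protein lies at the interface with the small subunit and can bind Mdm2. The log2 ratios were -0.47, -0.37, -1.21 and -0.67, lowest in mouse 3, with a mean of -0.68 ± 0.37 (SD, n = 4; limma adjusted p = 0.0406). With the random block the adjusted p from limma was 0.0758, and the call was lost. Rpl36 stood nearby without passing, at -0.06, -0.84, -0.64 and -0.64 (limma adjusted p = 0.0526), with mouse 1 near 0.

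At the stalks, which handle elongation factors and transfer RNA, values lay on both sides of 0. Rplp0, the base of the stalk that recruits elongation factors, had 0.23, 0.06, 0.85 and 0.43, above 0 in every mouse, with a mean of 0.39 ± 0.34 (SD, n = 4; limma adjusted p = 0.115). Its partners Rplp1 and Rplp2 had means of -0.20 and -0.08 (limma adjusted p = 0.301 and 0.63). Rpl10a, the protein of the other stalk, which guides transfer RNA out of the ribosome, had 0.33, 0.31, 1.34 and 1.01. Mice 3 and 4 were the higher ones, and the mean of 0.75 ± 0.51 (SD, n = 4), the highest of the family, did not pass (limma adjusted p = 0.0577).

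The 5S particle, made of 5S ribosomal RNA with Rpl5 and Rpl11, binds Mdm2 when ribosome assembly is disturbed. Neither gene passed. Rpl11 had -0.10, 0.04, -0.40 and -0.09 in mice 1 to 4 (limma adjusted p = 0.335). Rpl5 was spotted 17 times, whereas the other 63 members had 1 spot each, and so shows how far the spots of this gene differed within an array. In mouse 1 the 17 spots ran from -0.36 to 0.29 with a median of 0.003, and in mouse 2 from -0.50 to 0.26 with a median of -0.15. In mouse 3 they ran from -0.06 to 0.60 with a median of 0.21, and in mouse 4 the 12 spots with a value ran from -0.17 to 0.25 with a median of 0.05. The SD between spots averaged 0.19 over the 4 mice, and the SD between the mice's spot means was 0.16. A single Rpl5 spot was therefore about as variable as the mouse means. Of the 17 spots, 11 had a mean above 0 and 6 below, between -0.17 and 0.37, and 0 passed the test over all 9909 spots (smallest limma adjusted p = 0.0919). Rpl5 as a gene had a mean of 0.04 ± 0.16 (SD, n = 4; 95% interval from limma -0.16 to 0.25). Across the 10 genes spotted 17 times, the SD between spots in a mouse ran from 0.10 to 1.09, with a median of 0.21. The 5 Rpl5 spots with no value in mouse 4 had 0.12 to 0.60 in mouse 3, 4 of them over 0.4, against -0.06 to 0.52 and 1 over 0.4 among the 12 spots with a value. Over those 12 spots the mean of mouse 3 was 0.16 instead of 0.25. The sources used here do not say whether the spots of a gene hold the same sequence. The SD between spots can therefore hold differences between sequences as well as measurement error.

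**Figure D3:**
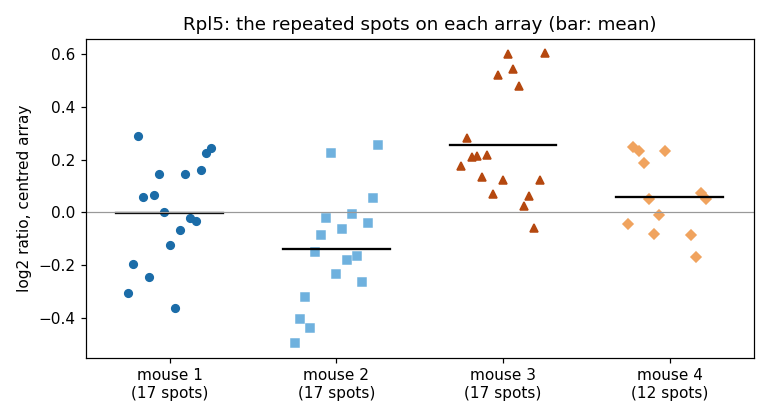
Log2 ratios (vertical axis) of the Rpl5 spots on each of the 4 arrays, 1 point per spot, with a bar for the mean of each mouse. The spots of a mouse spread over more than the distance between most of the bars, and mouse 3 has the highest mean, 0.25.

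In the small subunit, 2 called genes belong to the head, the lobe that clasps the messenger RNA and transfer RNA. Rps15, on the head near the contact with the large subunit, had -0.72, -0.77, -0.45 and -0.62, the tightest values of the called genes. Its mean was -0.64 ± 0.14 (SD, n = 4; limma adjusted p = 0.0121). Rps16, whose tail reaches the transfer RNA in the peptidyl site, had -0.16, -1.15, -0.76 and -0.72, with mouse 1 far from the other three. Its mean was -0.69 ± 0.40 (SD, n = 4; limma adjusted p = 0.0437, or 0.107 with the random block, where the call was lost). Of the 5 head genes tested, 2 passed below 0 and 0 above, a description of a short list beside 4.81% of all genes called below 0. Rps19, the gene most often mutated in human Diamond-Blackfan anaemia, had -0.44, -0.18, -0.24 and -0.25, below 0 in every mouse. Its mean of -0.28 ± 0.11 (SD, n = 4) stayed short of the threshold (limma adjusted p = 0.0579). Rps12 and Rps18 had means of -0.24 and -0.18.

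Rps23 and Rps26 lie on the path of the messenger RNA. Rps23, a protein of the decoding centre, had -0.31, -1.11, -0.77 and -0.69, with a mean of -0.72 ± 0.33 (SD, n = 4; limma adjusted p = 0.0274, or 0.0719 with the random block, where the call was lost). Rps26, which touches the messenger RNA where it leaves the subunit, had -0.65, -0.97, -0.70 and -0.42, with a mean of -0.69 ± 0.23 (SD, n = 4; limma adjusted p = 0.0171). Both were below 0 in every mouse and lowest in mouse 2. At the entry side, Rps2 had -0.80, -0.97, -0.20 and -0.13 (limma adjusted p = 0.0909) and Rps3 had 0.08, -0.16, -0.43 and -0.16 (limma adjusted p = 0.282), and neither passed. Rps2 lay far below 0 in mice 1 and 2 only.

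Above 0, the tested small subunit genes were Rps3a1 and Rps4x alone. Rps3a1 had 0.02, -0.22, 0.89 and 0.79, and Rps4x, the X-linked gene, had 0.19, -0.27, 0.63 and 0.51. In both, mice 3 and 4 were high and mouse 2 was below 0, and neither passed (limma adjusted p = 0.274 and 0.297). Rps7, a further Mdm2-binding protein, had -1.52 in mouse 1, -0.15 in mouse 2, and 0.31 and 0.33 in mice 3 and 4, the widest spread of the small subunit (SD 0.87, n = 4).

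Paralogs, the copies whose symbols end in l or in l with a number, had probes for 7 genes, of which 5 were tested. The means of these 5 lay below 0, between -1.04 and -0.06. In the whole family 73.6% of means lay below 0, and among all genes 49.7%. The shares called below 0 were 17.0% and 4.81%. Rps27l is a p53 target in human cells. It had -1.51, -1.40, -0.73 and -0.53, with mice 1 and 2 lowest and a mean of -1.04 ± 0.49 (SD, n = 4; limma adjusted p = 0.0255), and it was the only paralog past the test. Its parent form Rps27 had 0.24, -0.36, -0.05 and -0.47 and did not pass (limma adjusted p = 0.437). Rps27l was lower than Rps27 in 4 of 4 mice, with a mean difference of -0.88 ± 0.70 (SD, n = 4) and differences between -1.75 and -0.06. The exact two-sided sign-flip p was 0.125, the smallest that 4 mice allow, and 0.25 after adjustment over the 4 pairs of paralog and parent gene compared.

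The opposite arrangement held for Rpl39l, a form known from testis, against Rpl39. Rpl39l had -0.12, 0.02, -0.11 and -0.02, close to 0 in every mouse, and was higher than Rpl39 in 4 of 4 mice, by 1.00 ± 0.24 (SD, n = 4; exact two-sided sign-flip p = 0.125, adjusted 0.25). Rpl3l, the form of striated muscle, had -1.64, -1.23 and -0.25 in mice 1, 2 and 4 and did not pass (limma adjusted p = 0.0768). Rpl3 itself had -0.12, -0.17, -0.36 and -0.34 (limma adjusted p = 0.0831). Rpl3l was lower than Rpl3 in 2 of 3 mice (mean difference -0.83 ± 0.83, SD, n = 3; exact two-sided p = 0.5, adjusted 0.5). Of 17 striated muscle markers, 13 were tested, 7 passed below 0 and 0 above, beside 4.81% and 7.69% of all genes. The list medians were -2.68, -0.84, -2.13 and -1.56 in mice 1 to 4. The part of muscle RNA in the Rpl3l values was not tested.

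Rpl36al had -0.10, -1.41, -0.27 and -1.33, low in mice 2 and 4 only (limma adjusted p = 0.101). Rps4l, which RefSeq lists as a transcribed pseudogene, had a mean of -0.25 (limma adjusted p = 0.217). It was lower than Rps4x in 3 of 4 mice (mean difference -0.52 ± 0.56, SD, n = 4; exact two-sided p = 0.25, adjusted 0.333). Many ribosomal protein genes have processed copies elsewhere in the genome, and whether a spot also binds their transcripts is not known here.

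The remaining large subunit genes did not pass, and several differed more between mice than from 0. Rpl37a had 0.08, -0.54, -2.20 and -0.83, the widest spread of all members (SD 0.96, n = 4; limma adjusted p = 0.155). Rpl7a had -1.38 and -0.72 in mice 1 and 2 and values near 0 in mice 3 and 4 (-0.03 in both). Rpl27 had -0.19, -1.11, -0.94 and -0.09. Rpl10, an X-linked gene whose protein joins the subunit late in its assembly, had 0.65 and 0.72 in mice 1 and 2, against -0.40 and -0.23 in mice 3 and 4. Rpl28 was high in mouse 1 (1.02) and below 0 in the other mice, and Rpl24 was likewise high only in mouse 1 (0.75).

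Other members had means near 0, and Rpl14 and Rpl29 also had single values near 0 in every mouse. Rpl14 had -0.08, -0.05, -0.004 and -0.05, with a 95% interval from limma of -0.20 to 0.10. Rpl29 had -0.02, -0.12, -0.02 and 0.04, with an interval of -0.19 to 0.13. Rpl13a, a frequent reference gene in expression assays, had 0.30, -0.23, 0.17 and -0.11, with an interval of -0.23 to 0.29. Rpl37 had -0.05, 0.07 and 0.16 in mice 1 to 3. Single mice lay farther out in most of the rest, such as Rpl15, with -0.53, -0.41, 0.41 and 0.10, and Rpl8, with -0.35 and 0.55 in mice 2 and 3. The means of Rpl9, Rpl15, Rpl37, Rpl8, Rpl27a and Rpl7 were -0.18, -0.10, 0.06, 0.07, 0.08 and 0.11. Rpl34 lay farther from 0, with a mean of -0.23, and did not pass (limma adjusted p = 0.217). In the small subunit, Rps13, Rps24 and Rps27 had means of -0.11, -0.06 and -0.16.

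Of the 64 members, 11 had too few values for a test. Rps10, of the head, had -0.78 and -0.89 in mice 1 and 2, and Rpl21 had -0.97 and -0.29 in mice 2 and 4. Rpl6 (-0.28 and 0.52 in mice 2 and 4), Rps6 (-0.09 and -0.02 in mice 1 and 3) and Rpsa (0.35 and -0.19 in mice 1 and 2) also had 2 values. Rpl30 had 1 value, -0.26 in mouse 3, and Rpl7l1 had 1, -0.12 in mouse 1. Rpl12, Rpl13, Rpl22l1 and Rps20 had no value on any array. Fau, which encodes a small subunit protein but lies outside the symbol rule, had -0.11, -0.62, -0.23 and -0.08 (limma adjusted p = 0.159).

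How firmly the 9 calls stand differed between genes. Rpl39 and Rps15 passed in each of the 12 other settings tried. With mice 1 and 2, and mice 3 and 4, as a random block, 5 of the 53 members passed below 0 (Rpl38, Rpl39, Rps15, Rps26 and Rps27l), against 1.38% of all genes, and Rpl23, Rpl26, Rps16 and Rps23 did not. With mouse 1 left out, 6 of 47 members passed below 0, against 1.3% of all genes. Of these 6, 5 were among the 9, and Rpl36 was newly called. The counts were 3 of 45 without mouse 2, 2 of 48 without mouse 3 and 5 of 48 without mouse 4. The shares of all genes in these 3 fits were 2.37%, 1.11% and 1.88%. Rpl23 was lost whichever mouse was left out, Rpl26, Rps16 and Rps23 without mouse 2, 3 or 4, Rps27l without mouse 1, 2 or 3, and Rps26 without mouse 1 or mouse 3. The adjusted p of limma in these fits reached 0.122. Rpl38 has no value in mouse 4 and could be fitted with 3 mice only, so its call without mouse 4 rests on the same values.

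Other genes of ribosome production and use stand beside these counts, and 4.81% of all genes were called below 0 and 7.69% above. The shares called below and above were 4% and 2% for ribosome biogenesis factors and 9.6% and 5.8% for mitochondrial ribosomal proteins. They were 43.5% and 1.4% for the respiratory chain. Of 50 tested ribosome biogenesis factors, 2 passed below 0 and 1 above, with a median of -0.01, and of 13 genes of RNA polymerase I and its factors, which make ribosomal RNA, 1 passed on each side (median -0.04). Among 52 mitochondrial ribosomal protein genes, whose products form the separate ribosome of mitochondria, 5 passed below 0 and 3 above, with a median of -0.12. Of 44 genes whose symbols start with Eif or Eef, mostly translation factors, 4 passed below 0 and 6 above, with a median of 0.03. The respiratory chain was listed by symbols that start with Nduf, Cox, Uqcr, Atp5 or Sdh, so the list is not limited to subunits. It had 30 of 69 genes past the test below 0 and 1 above, with a median of -0.54. Cox7a1 and Cox8b, both called, are also on the list of striated muscle markers. The differences between these groups and the ribosomal protein genes were not tested.

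**Figure D4:**
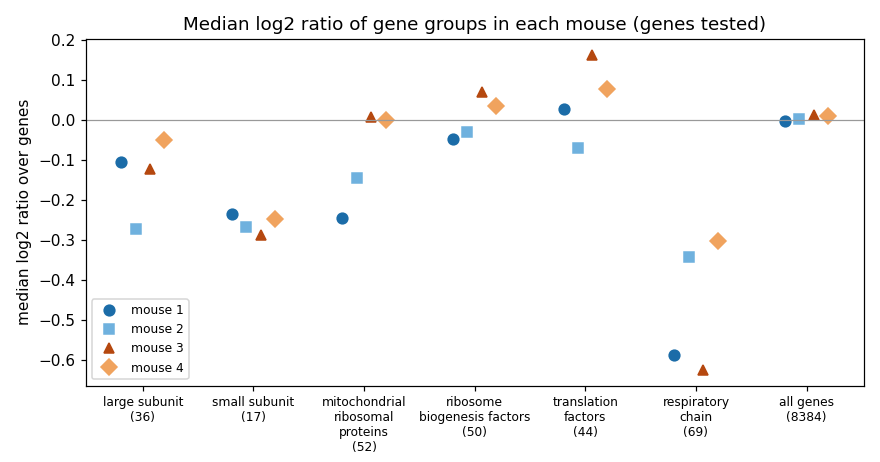
Median log2 ratio over the tested genes of each group (vertical axis) in the 4 mice, 1 symbol per mouse, with the number of genes tested in brackets. The small subunit medians, with paralogs included, lie between -0.29 and -0.24 in all mice. The respiratory chain medians lie between -0.63 and -0.30, against medians within 0.012 of 0 for all genes.

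Markers of other cells that a lung sample can hold are given beside these values. The lists are short, and 4.81% of all genes were called below 0 and 7.69% above. Of 6 lymphocyte markers tested, 0 passed limma on either side, with 1 on each side at an unadjusted p under 0.05, and the list medians were -0.11, 0.02, 0.15 and -0.07 in mice 1 to 4. Of 6 tested markers of dividing cells, 0 passed limma, with 1 below 0 at an unadjusted p under 0.05, and the medians were -0.83, -0.68, 0.06 and -0.04. Of 5 tested fat markers, 4 passed below 0, with medians of -1.83, -0.20, -2.19 and -2.03. Of 5 tested neutrophil markers, the calprotectin genes S100a8 and S100a9 passed below 0 and 0 passed above, and the list medians were -0.45, -0.07, -0.52 and -0.51. Of 3 macrophage markers, Mrc1 passed above 0 and 0 passed below, with medians of -0.61, -0.25, 0.33 and 0.41. Of 2 red cell markers, Alas2 passed above 0. Of 7 lung epithelial markers, Sftpa1 passed above 0 and Aqp5 below, with medians of 0.16, 0.06, 0.34 and 0.36. Mouse 2 had the median nearest 0 for the striated muscle, fat, lymphocyte, neutrophil, macrophage and lung epithelial lists. This did not hold for the lists of dividing cells and red cells. The part of any of these cell types in the ribosomal protein values was not tested.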

How the data were processed

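The authors deposited 1 log ratio per spot and array in a table of 17280 spots; the log2 scale was inferred from the values, since the deposited table states no base, direction, background correction or normalization. The sources used here do not name scanner, dyes or array design, and signal and background were not used here. The table held 0 other columns of per-sample values.

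Spot names came from an old annotation of the platform: 14722 spots had 1 symbol, 1 had several and 2557 were not listed. Arrays (medians -0.009, 0.015, 0.029 and 0.019) were centred on their medians, and spots of a symbol were averaged per array. Genes with at least 3 values were tested against 0 with limma 3.58.1 (R 4.3.3; lmFit, eBayes, two-sided, Benjamini-Hochberg over all genes, threshold 0.05). The 4 mice numbered in the labels were the replicates. Members and gene lists were chosen with earlier results of these data known. Members past the test, the 5 farthest on each side of 0 and members of the role groups were named by rule; the rest are given by means or ranges. Alternatives were other centring, scaling, probe averaging, filters on missing values, robust variances, a random block of mouse pairs, and leaving out each mouse or the paralogs.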

Additional observations from a re-analysis of the deposited data

Results flagged for a closer look

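Rpl39 was singled out by 1 mouse far from the others: mouse 4 had -0.69, against -1.14, -1.21 and -1.20 in mice 1 to 3. The gap was 0.876 of the whole range, above Dixon's 95% critical value for 4 samples. Of 52 sets of 4 values examined (45 genes and 7 summaries), this was the 1 set picked, and chance picks about 1 in 20. Without mouse 4 the mean of Rpl39 was -1.18, and the gene still passed limma.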

How the results depend on the processing

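With 9 members past the test below 0 and 0 above as reported, the count lay between 8 and 10 without centring, with arrays scaled to a common spread, with the median of probes or 1 probe per gene, with values on all 4 or on at least 2 arrays, with robust variances, and without the paralogs. With mice 1 and 2, and mice 3 and 4, as a random block it was 5, and over all genes 402 passed instead of 1048. Without 1 mouse it ranged from 2 to 6, and the count over all genes from 277 to 537, in fits with fewer arrays and fewer genes. The count above 0 was 0 in all of these settings. The member median kept its sign, between -0.20 and -0.17, and so did large minus small subunit median, between 0.10 and 0.17. No paired analysis was possible because the arrays form 1 group. Depth is limited by 4 arrays and 1 pool, and signal over background could not be judged.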
